A study of Mus musculus with 7 samples.

Results

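The genes described here are 7 immunoglobulin heavy chain constant genes (Ighg1, Ighg2b, Ighg2c, Ighg3, Ighm, Igha and Ighd), the kappa light chain constant gene Igkc, and 2 genes of antibody-secreting cells, Jchain and Mzb1. They were chosen by name and by the difference in their counts between these tumor groups, which was known from earlier results of the same comparison, so their values are given as a description without a test. All 10 were found among the 22629 rows of the count table, and all 10 passed the filter on low counts. RNA was sequenced from 7 subcutaneous (s/c) pancreatic ductal adenocarcinoma (PDA) tumors, harvested 2 weeks after inoculation of C57BL/6 mice with 1242 KPC cells. This mouse PDA line came from a pancreatic tumor of a mouse with Pdx1-Cre and mutant Trp53 (R172H), and the hosts had an intact immune system. The 3 sgScramble tumors, labeled 1, 4 and 5, were formed with cells that carried Cas9 and a scrambled guide RNA. The 4 icOVA tumors, labeled 15, 16, 18 and 2, were formed with sgScramble cells that also carried a doxycycline-inducible vector for cytoplasmic ovalbumin, a chicken protein foreign to the mouse. The icOVA cells had been sorted and cloned from single cells, and ovalbumin was induced by doxycycline in the food from the day of inoculation. Whether the sgScramble tumors sequenced here came from cloned cells, carried an empty vector or grew in mice given doxycycline is not given in the sources used here, so ovalbumin, clone and doxycycline cannot be told apart. One tumor is taken as one replicate, and any p-value measures the spread between tumors.

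An antibody consists of paired heavy and light chains, and the constant part of the heavy chain sets its isotype. Resting B cells express IgM and IgD from the same primary transcript, and activated B cells can join their variable region to a downstream constant gene (class switching), which leads to IgG, IgE or IgA. Plasma cells, the terminal stage of the lineage, secrete antibody and hold very large amounts of immunoglobulin mRNA, and in mice the kappa chain is the usual light chain.

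The IgG constant genes lie in tandem on chromosome 12 and have similar sequences, so that a short read must fall on a base at which they differ to be assigned to one of them. The hinge, the flexible link between the antigen-binding arms and the stem, is where they diverge most plainly, and its exon (exon 2) is shown for each gene from the GENCODE M21 transcripts of build GRCm38, read 5′ to 3′ on the minus strand. Capitals mark the in-frame cysteine codons, since hinge cysteines join the heavy chains of one antibody to each other.
Ighg1: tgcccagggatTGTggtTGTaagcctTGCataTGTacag
Ighg2b: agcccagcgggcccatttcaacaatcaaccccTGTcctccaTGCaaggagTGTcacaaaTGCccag
Ighg2c: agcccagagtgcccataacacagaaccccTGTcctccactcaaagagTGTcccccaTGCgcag
Ighg3: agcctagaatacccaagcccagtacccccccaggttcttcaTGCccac
These exons are at chr12:113329844-113329882 (Ighg1, 39 bases, 4 cysteine codons), chr12:113307261-113307326 (Ighg2b, 66 bases, 4 cysteine codons), chr12:113288263-113288325 (Ighg2c, 63 bases, 3 cysteine codons) and chr12:113360529-113360576 (Ighg3, 48 bases, 1 cysteine codon). Over the secreted-form transcripts, Ighg2b and Ighg2c were the closest pair, with 86.8% of aligned bases identical, and Ighg1 and Ighg3 the most distant, with 75.8%. At the read length of 76 bases the genes could nevertheless be told apart over nearly all of their length. No 76-base window of Ighg1, Ighm, Igha, Ighd, Igkc or Jchain occurred in a transcript of another gene, and the share was 0.65% for Ighg2b, 0.32% for Ighg2c and 0.53% for Ighg3. For Mzb1 it was 51.4%, because the annotated gene SPATA24 overlaps it on the same strand, so the counts of Mzb1 depend on how the authors assigned such reads.

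The libraries held between 30904855 and 37510591 counts, so 1 count was worth about 0.03 CPM (counts per 1000000 counts of the library total after TMM scaling, a correction for unequal composition). The ovalbumin row (OVA) had 151, 85 and 92 counts in sgScramble tumors 1, 4 and 5, and 6871, 10750, 3413 and 7989 counts in icOVA tumors 15, 16, 18 and 2, a fitted log2 difference of 5.99 (SE 0.47, edgeR adjusted p = 0.0143), so that OVA separated the libraries as they are labeled. The transcripts that mark epithelial PDA cells (5 genes) summed to 4151 to 4379 CPM in the sgScramble and 2694 to 4626 CPM in the icOVA tumors. Of 17489 genes tested, 588 (3.36%) were higher and 444 (2.54%) lower in the icOVA group, at an edgeR adjusted p below 0.05.

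The transcripts of all 4 IgG heavy chains were low in sgScramble tumors (0 to 24 counts) and higher in every icOVA tumor, but the tumors differed in which IgG they held. Ighg1, the heavy chain of IgG1, had 1, 9 and 6 counts in sgScramble tumors 1, 4 and 5, and 455, 732, 1260 and 727 counts in icOVA tumors 15, 16, 18 and 2. The groups were far apart, the lowest icOVA tumor at 12.3 CPM and the highest sgScramble tumor at 0.273 CPM. The mean was 0.165 ± 0.125 CPM (SD, n = 3) against 23.0 ± 9.90 CPM (SD, n = 4), a 139.8-fold ratio of means and a fitted log2 fold change of 7.12 (SE 0.61). Among the genes called higher with a mean of at least 50 counts, this was the largest fitted difference. That limit leaves out Mzb1, with a fitted 7.87 (SE 1.04) on 0 counts in the sgScramble group. The rank is a description only, since this contrast helped to choose Ighg1. Ighg2b, the heavy chain of IgG2b, had 8, 24 and 9 counts in the sgScramble tumors. It had 50, 47 and 67 counts in icOVA tumors 15, 16 and 18, but 2772 counts in icOVA tumor 2. The icOVA tumors were thus at 1.35 to 1.93 CPM apart from 1 at 86.2 CPM, against at most 0.729 CPM in sgScramble tumors. The log2 fold change of Ighg2b was 5.76 (SE 2.03), and 1.89 without icOVA tumor 2. Ighg2c, the heavy chain of IgG2c, which C57BL/6 mice have in place of IgG2a, had 4, 3 and 8 counts across the sgScramble tumors, compared with 42, 103, 142 and 357 counts in icOVA tumors 15, 16, 18 and 2. Its groups did not overlap, with means of 0.154 ± 0.0890 CPM (SD, n = 3) and 4.82 ± 4.36 CPM (SD, n = 4) and a log2 fold change of 4.95 (SE 0.92). Ighg3, the heavy chain of IgG3, was the scarcest IgG, with 1, 1 and 0 counts across the sgScramble tumors, compared with 40, 31, 6 and 85 counts in icOVA tumors 15, 16, 18 and 2. With 2 counts in the whole sgScramble group, the depth-scaled ratio of the summed counts was 57.7, with an exact 95% interval of 15.7 to 480.6 that covers counting error only. icOVA tumor 18, which had the most Ighg1 of any tumor, had the least Ighg3 of the icOVA tumors.

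The transcripts of isotypes other than IgG differed less or overlapped. Ighm, the heavy chain of IgM, was the most abundant heavy chain transcript in the sgScramble tumors, with 392, 391 and 363 counts. It had 1536, 551, 1336 and 1216 counts in icOVA tumors 15, 16, 18 and 2. The sgScramble tumors were close together (11.6 ± 0.298 CPM, SD, n = 3) and all lower than the icOVA tumors (33.4 ± 11.8 CPM, SD, n = 4), although icOVA tumor 16, at 15.8 CPM, stood nearer to the sgScramble group than to the other icOVA tumors. The ratio of means was 2.88, and the log2 fold change 1.53 (SE 0.31). Igha, the heavy chain of the mucosal isotype IgA, had 126, 110 and 44 counts across the sgScramble tumors, compared with 160, 125, 48 and 81 counts in icOVA tumors 15, 16, 18 and 2. Its groups overlapped over most of their range, with means of 2.79 ± 1.21 CPM (SD, n = 3) and 2.95 ± 1.28 CPM (SD, n = 4) and a log2 fold change of 0.079 (SE 0.45). Ighd, the heavy chain of IgD, which marks mature naive B cells, had 10, 18 and 21 counts across the sgScramble tumors, compared with 23, 9, 32 and 29 counts in the icOVA tumors in the same order. These groups overlapped as well, and its log2 fold change was 0.43 (SE 0.49).

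**Figure D1:**
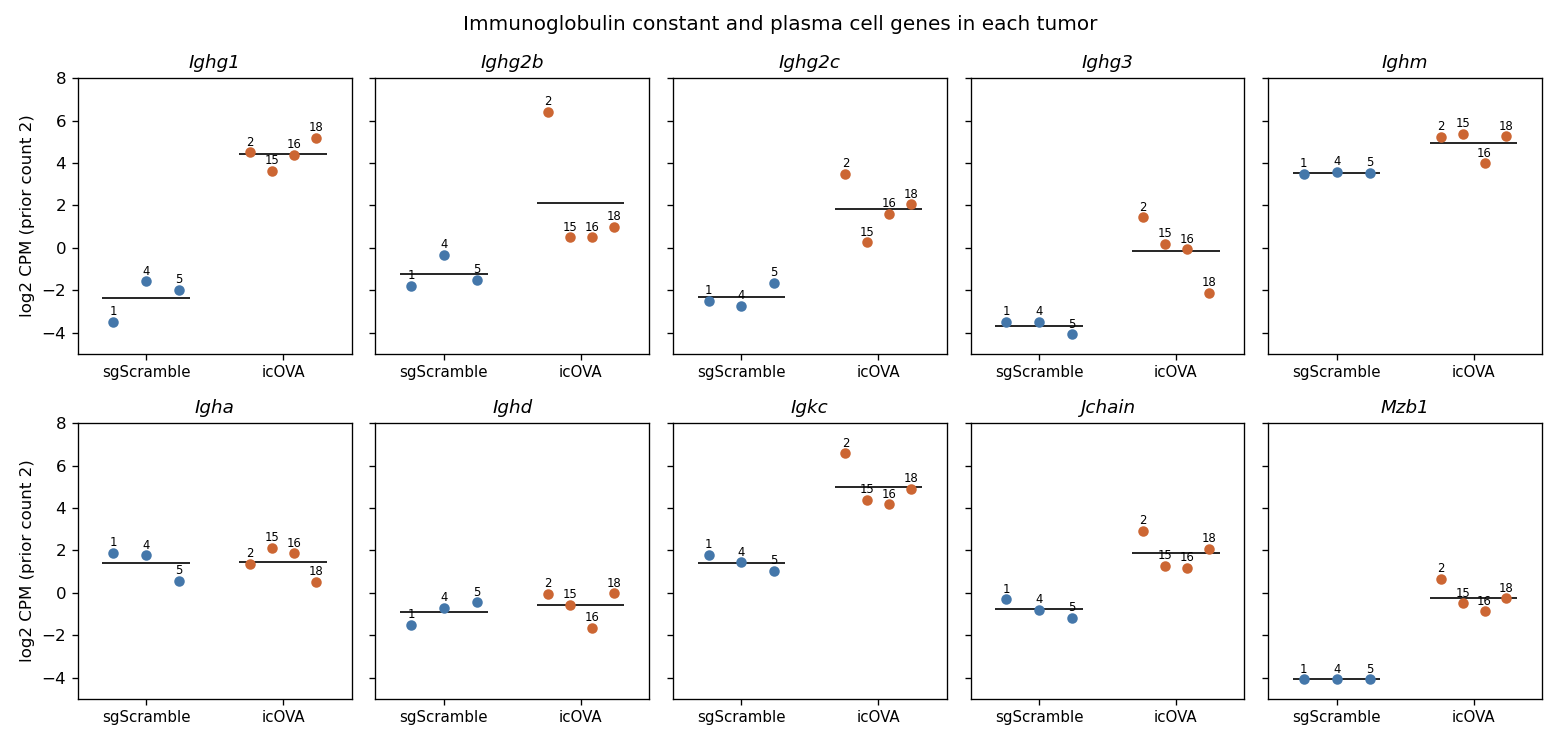
Log2 CPM (prior count 2) for each of the 10 genes, with 1 point per tumor, numbered by tumor, and a line at each group mean of log2 CPM. A count of 0 is drawn at -4.09. Ighg1 lies at -3.51 to -1.59 in sgScramble and 3.63 to 5.18 in icOVA tumors. In Ighg2b icOVA tumor 2 stands alone at 6.43, and the groups overlap in Igha and Ighd.

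The kappa light chain gene Igkc and the secretion genes Jchain and Mzb1 were higher in every icOVA tumor than in any sgScramble tumor. Igkc had 117, 87 and 63 counts in sgScramble tumors 1, 4 and 5, and 769, 628, 1053 and 3083 counts in icOVA tumors 15, 16, 18 and 2. The highest sgScramble tumor was at 3.37 CPM and the lowest icOVA tumor at 18 CPM. The mean was 2.68 ± 0.677 CPM (SD, n = 3) in sgScramble and 41.2 ± 36.8 CPM (SD, n = 4) in icOVA tumors, a 15.4-fold ratio and a log2 fold change of 3.94 (SE 0.69). Jchain, the joining chain that links IgM and IgA into polymers and is made in plasma cells of every isotype, had 26, 17 and 12 counts across the sgScramble tumors, compared with 88, 77, 143 and 242 counts in icOVA tumors 15, 16, 18 and 2. Its groups did not overlap, the ratio of means was 7.38, and the log2 fold change was 2.87 (SE 0.53). Mzb1, an endoplasmic reticulum protein that assists antibody assembly in marginal zone B cells and plasma cells, was at 0 counts in all 3 sgScramble tumors and had 24, 17, 27 and 49 counts in icOVA tumors 15, 16, 18 and 2. With 3 counts over the sgScramble group set in place of 0, Mzb1 was 27.8-fold higher in the icOVA tumors. This lower bound is approximate and leaves out the spread between tumors. The overlapping row SPATA24 had 7, 4 and 0 counts across the sgScramble tumors, compared with 5, 0, 4 and 8 counts in the icOVA tumors. Igkc, Jchain, Mzb1 and Ighg2b shared 1 order of the icOVA tumors, 2 highest, then 18, 15 and 16, whereas Ighg1 was highest in tumor 18 and lowest in tumor 15. OVA itself had a different order, highest in tumor 16 and lowest in tumor 18.

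By the threshold applied to all genes, 7 of the 10 genes were called higher, against 3.36% of all genes tested, and Ighg2b, Igha and Ighd were not called. None of the 10 was called lower by edgeR, DESeq2 or limma-voom, and DESeq2 gave no p-value for Ighg2b, whose counts it treated as holding an outlier. In 8 of the 10, every icOVA tumor was above every sgScramble tumor, against 11.3% of all genes. Because this contrast helped to choose the genes, nothing is read from these counts. The median log2 fold change of the 10 was 4.44 as fitted, and 4.37 with Mzb1 at its lower bound, beside -0.0048 over all genes tested. The calls also depended on single libraries. In fits that omitted tumor 1 or tumor 5 of the sgScramble group, or tumor 15 of the icOVA group, none of the 10 was called, although 7 had an unadjusted p below 0.05 in each of these fits (edgeR), of 10 tested in the first 2 fits and 9 in the last, and 4 were called without sgScramble tumor 4 and 2 without icOVA tumor 2. The log2 fold changes themselves ranged, over all single-tumor omissions, from 6.61 to 7.72 for Ighg1, 4.13 (without icOVA tumor 2) to 5.495 for Ighg2c, 3.11 to 4.19 for Igkc, 2.39 to 3.16 for Jchain, 1.41 to 1.76 for Ighm and -0.24 to 0.32 for Igha. In bulk tumors, fewer cells of a type and less RNA per cell cannot be told apart.

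**Figure D2:**
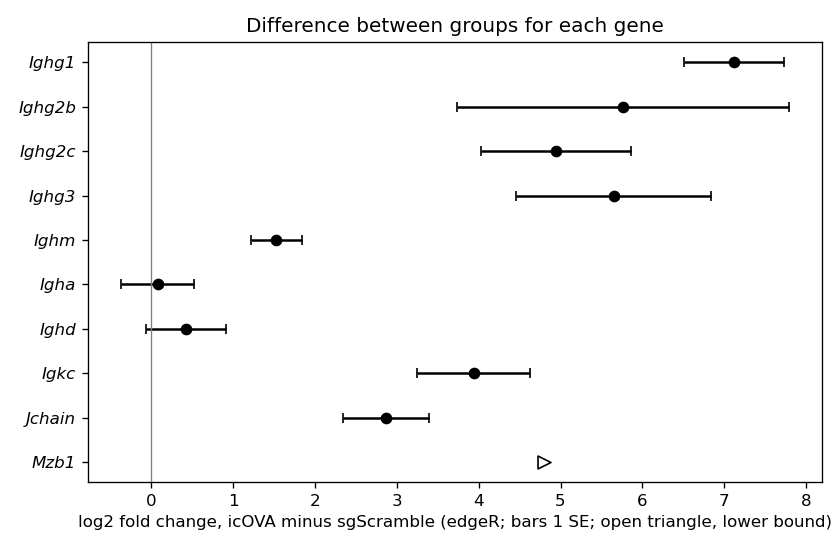
Fitted log2 fold change (icOVA minus sgScramble) of each gene on the horizontal axis, with bars of 1 SE from edgeR and an open triangle at the lower bound for Mzb1. Among the fitted points drawn, that of Ighg1 is farthest from 0 at 7.12 (SE 0.61), the Ighg2b bar is the widest (SE 2.03), and the points of Igha (0.079) and Ighd (0.43) lie within 1 SE of 0.

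Levels of different genes were compared as CPM per kb of exon model, using the group means. In the sgScramble group Ighm (6.15 CPM per kb) and Igkc (5.03) led, followed by Igha (1.05), and Ighg1 (0.0635), Ighg2b (0.155), Ighg2c (0.116) and Ighg3 (0.00785) were all below Ighd (0.264). In icOVA tumors Igkc (77.5 CPM per kb) was above Ighm (17.7), Ighg1 (8.88) and Ighg2b (8.48), of which the last rested on tumor 2. In single tumors the order of Ighm and Ighg1 depended on the length used. Per shortest transcript, the heavy chain share of Ighg1 exceeded that of Ighm in icOVA tumors 16 (50.85% against 27.6%) and 18 (49.98% against 38.2%). It was lower in icOVA tumors 15 (24.2% against 58.9%) and 2 (15.05% against 18.15%). By CPM per kb of exon model the other genes were lower. Ighg2c (3.63), Jchain (1.61) and Igha (1.11) followed, then Mzb1 (0.707), Ighg3 (0.476) and Ighd (0.355).

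The composition of the heavy chain transcripts was compared as the share that each isotype took of the counts of all 7 heavy chain constant genes, which totaled 542, 556 and 451 for sgScramble tumors 1, 4 and 5, compared with 2306, 1598, 2891 and 5267 in icOVA tumors 15, 16, 18 and 2. The 4 IgG genes together made up 2.58% (95% Wilson interval 1.55 to 4.29), 6.655% (4.87 to 9.04) and 5.1% (3.42 to 7.54) in the sgScramble group. In icOVA tumors 15, 16, 18 and 2 their share was 25.5% (23.7 to 27.3), 57.1% (54.7 to 59.5), 51.0% (49.2 to 52.8) and 74.8% (73.6 to 75.98). The lowest icOVA tumor was thus well above the highest sgScramble tumor, and the icOVA tumors also differed from one another by more than counting error. The group means were 4.78 ± 2.06% (SD, n = 3) and 52.1 ± 20.4% (SD, n = 4), or 44.5 ± 16.8% (SD, n = 3) for icOVA without tumor 2. Ighm took the largest part of the rest, 74.4 ± 5.38% in sgScramble and 42.6 ± 18.6% in icOVA tumors. Igha made up 23.3%, 19.8% and 9.76% for sgScramble tumors 1, 4 and 5, compared with 6.94%, 7.82%, 1.66% and 1.54% in icOVA tumors 15, 16, 18 and 2, although its CPM overlapped between the groups. Within IgG, Ighg1 was the leading gene in icOVA tumors 15, 16 and 18, with 77.5%, 80.2% and 85.4% of the IgG counts. In icOVA tumor 2 the leading gene was Ighg2b, with 70.3% of the IgG counts (95% Wilson interval 68.9 to 71.7) and 52.6% of all heavy chain counts, compared with 2.17% to 2.94% of heavy chain counts in the other 3 icOVA tumors. Ighg2b was also the leading IgG in the sgScramble tumors, but on totals of 14, 37 and 23 IgG counts. In tumor 5 its 9 counts cannot be separated from the 8 of Ighg2c and the 6 of Ighg1. Nor can its 8 counts in tumor 1 be separated from the 4 of Ighg2c.

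**Figure D3:**
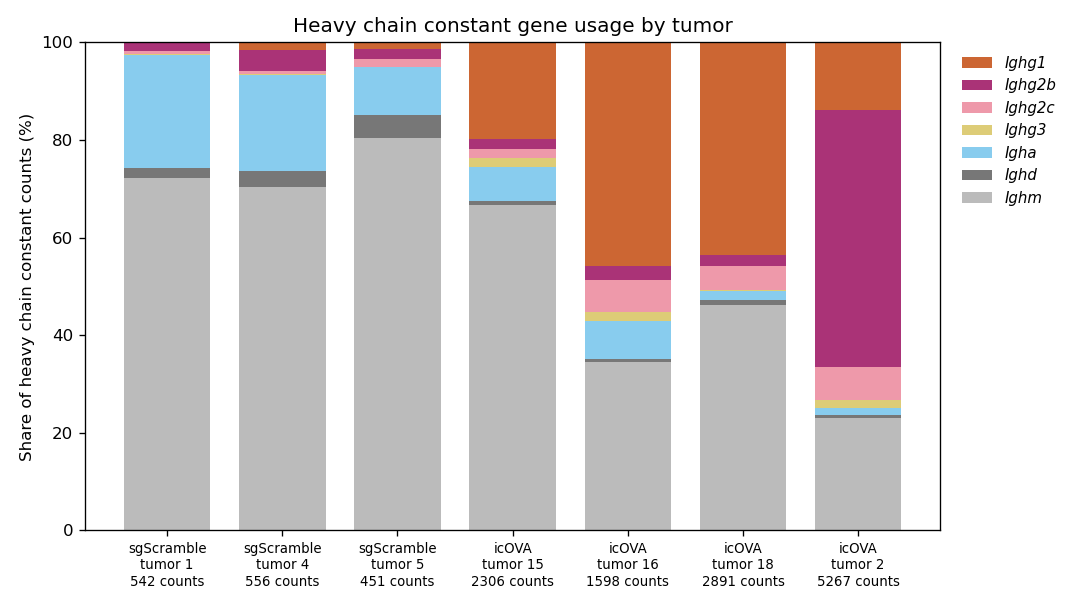
Stacked bars, starting at 0, of the percentage of heavy chain constant gene counts taken by each isotype in each of the 7 tumors. Ighm takes 70.3% to 80.5% in the sgScramble tumors, Ighg1 takes 19.7%, 45.8% and 43.6% in icOVA tumors 15, 16 and 18, and Ighg2b takes 52.6% in icOVA tumor 2.

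The light chains were mainly kappa in both groups. Of the counts of Igkc and the lambda constant genes Iglc1, Iglc2 and Iglc3 together, Igkc took 84.8%, 88.8% and 78.8% in the sgScramble tumors and 90.8%, 95.2%, 92.9% and 87.3% in icOVA tumors 15, 16, 18 and 2. Iglc1 had 11, 1 and 2 counts across the sgScramble tumors, compared with 9, 9, 30 and 305 counts in icOVA tumors 15, 16, 18 and 2. The icOVA tumor with the high Ighg2b count therefore also had the most Iglc1 counts, 8.63% of its light chain counts, although the share was 7.97% in sgScramble tumor 1, on 11 counts. Iglc2 had 5, 2 and 7 counts against 36, 3, 16 and 20, and Iglc3 had 5, 8 and 8 counts against 33, 20, 34 and 125, in the same orders of tumors. Iglc2 and Iglc3 are close copies, and 6.63% of the 76-base windows of Iglc3 occur in another gene. None of the 3 passed the adjusted threshold (adjusted p = 0.1504 for Iglc1, 0.167 for Iglc2 and 0.0694 for Iglc3, edgeR), while each had an unadjusted p below 0.05. DESeq2 called 1 of the 3, Iglc3, and gave no adjusted p for Iglc1, and limma-voom called 0. Light chain counts per heavy chain count were 0.255, 0.176 and 0.177 in the sgScramble tumors and 0.367, 0.413, 0.392 and 0.671 in icOVA tumors 15, 16, 18 and 2, without overlap. Jchain counts per 1000 heavy chain counts did overlap, at 26.6 to 48.0 in the sgScramble group and 38.2 to 49.5 in the icOVA group.

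Total B cell content was compared through Cd79a and Cd79b, the signaling chains of the B cell receptor. Cd79a had 7, 7 and 24 counts across the sgScramble tumors, compared with 26, 6, 23 and 31 counts in icOVA tumors 15, 16, 18 and 2, and Cd79b had 25, 30 and 49 against 86, 27, 75 and 65 counts. Both overlapped between the groups, with log2 fold changes of 0.67 (SE 0.66, adjusted p = 0.543) for Cd79a and 0.77 (SE 0.43, adjusted p = 0.288) for Cd79b (edgeR). Per count of Cd79a and Cd79b together, there were 0.438, 1.0 and 0.315 IgG counts across the sgScramble tumors, compared with 5.24, 27.7, 15.05 and 41.05 in icOVA tumors 15, 16, 18 and 2. IgG therefore remained apart on this scale. Ighm counts per Cd79 count were 12.3, 10.6 and 4.97 in the sgScramble tumors and 13.7, 16.7, 13.6 and 12.7 in the icOVA tumors. The difference seen in CPM was thus much reduced. Every icOVA tumor was still above every sgScramble tumor, but only narrowly, on 32 to 112 Cd79 counts per tumor. icOVA tumor 16, with the lowest Ighm in CPM, had the fewest Cd79 counts of the icOVA tumors and the most Ighm per Cd79 count. On the scale of the leukocyte gene Ptprc, which itself rose by 1.08 on the log2 scale (SE 0.18, edgeR adjusted p = 0.0271), the log2 difference was 6.10 (SE 0.53) for Ighg1, 2.94 (SE 0.52) for Igkc, 1.84 (SE 0.49) for Jchain and 0.40 (SE 0.28) for Ighm, and it turned negative for Ighd (-0.68, SE 0.50) and Igha (-0.98, SE 0.39). Relative to Cd79a and Cd79b these were also negative, at -0.38 (SE 0.77) for Ighd and -0.62 (SE 0.72) for Igha.

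**Figure D4:**
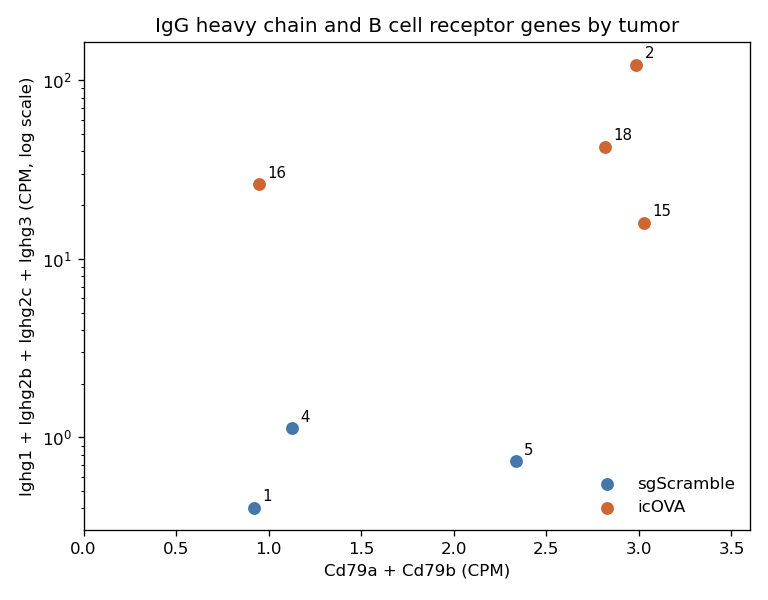
CPM of the 4 IgG genes together (vertical axis, log scale) against CPM of Cd79a and Cd79b together (horizontal axis), with 1 numbered point per tumor. The icOVA tumors lie at 15.9 to 122.5 CPM of IgG and the sgScramble tumors at 0.403 to 1.12 CPM. The Cd79 values overlap, and icOVA tumor 16 (0.946 CPM) lies among the sgScramble tumors (0.921 to 2.33 CPM) on that axis.

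Genes of the plasma cell program did not all move with the antibody transcripts. Of 17 such genes tested, 3 rose, 1 fell and 13 did not pass the threshold (median log2 fold change 0.16), against 3.36% higher and 2.54% lower of all genes. DESeq2 called 6 of them, Prdm1 and Sdc1 included, limma-voom called 3, and 9 had an unadjusted p below 0.05. Irf4, a transcription factor needed for plasma cells and also used by activated T cells, rose by a log2 fold change of 1.39 (adjusted p = 0.0273), Slamf7 by 1.08 (adjusted p = 0.0257) and Cd38 by 0.94 (adjusted p = 0.0230), all by edgeR. The gene that fell was Xbp1, a transcription factor that enlarges the secretory apparatus of plasma cells and of many epithelial cells, at a log2 fold change of -0.40 (SE 0.09) and an edgeR adjusted p = 0.0487. This call was near the threshold and was lost with limma-voom (adjusted p = 0.0542), without the filter on low counts (adjusted p = 0.0595) and in every omission of a single tumor except sgScramble tumor 4. Its level was 217 ± 26.7 CPM (SD, n = 3) in sgScramble and 165 ± 7.55 CPM (SD, n = 4) in icOVA tumors. Sdc1 (CD138) marks plasma cells but also epithelium, and its 493 ± 33.5 CPM and 363 ± 66.0 CPM gave a log2 fold change of -0.44 (adjusted p = 0.101). Prdm1, which encodes the plasma cell regulator Blimp-1, had a log2 fold change of 0.52 (adjusted p = 0.0927). Tnfrsf17 (BCMA) was not analysed here. The calls of these genes, of OVA and of the gene lists that follow depended on single libraries, since no gene was called in either direction once tumor 1 or 5 of the sgScramble group or tumor 15 of the icOVA group was omitted, although the unadjusted p was below 0.05 for 3087, 2936 and 3415 genes in these fits (edgeR).

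Among 9 B cell lineage genes tested, 1 rose and 8 did not pass (median log2 fold change 0.72), while DESeq2 called 3, limma-voom called 1, and 3 had an unadjusted p below 0.05. The gene that rose was Spib, a transcription factor of B cells and plasmacytoid dendritic cells, with a log2 fold change of 1.40 (adjusted p = 0.0328, edgeR). Ms4a1 (CD20) had 4 to 8 counts and 6 to 16 counts and was too low to be tested. The whole list summed to 27.2 to 38.2 CPM in sgScramble and 35.9 to 53.5 CPM in icOVA tumors, with an overlap. Cd72 made up the largest part of this sum, with means of 22.5 and 24.4 CPM (log2 fold change 0.11), so the sum mainly reflects that gene. Of 12 class switch recombination genes tested, none was called by edgeR or limma-voom, 1 was called by DESeq2, and 4 had an unadjusted p below 0.05 (median log2 fold change -0.098).

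Of 15 genes tested for cytokines and helper molecules that direct class switching, 5 rose and 10 did not pass the threshold by edgeR. DESeq2 called 5, limma-voom called 4, and 8 had an unadjusted p below 0.05 (edgeR). Il10 rose by a log2 fold change of 1.62 (edgeR adjusted p = 0.0380), Icos, a costimulatory receptor of helper T cells, by 1.51 (adjusted p = 0.0170), and Cd40lg, the T cell ligand for CD40 on B cells, by 1.44 (adjusted p = 0.0370). Il10 and Cd40lg were called on few counts. Il10 had 7 to 14 in the sgScramble and 24 to 47 in the icOVA tumors, and Cd40lg 5 to 8 and 15 to 21. Ifng, the cytokine that favors IgG2c in mice, rose by 1.08 (edgeR adjusted p = 0.03525), a call lost with limma-voom (adjusted p = 0.0513). Il21, a cytokine of follicular helper T cells, had 1 to 9 counts in the sgScramble and 10 to 19 counts in the icOVA group (log2 fold change 1.70, adjusted p = 0.108). Values for Tgfb1, which favors IgG2b and IgA (log2 fold change 0.12, adjusted p = 0.435), the B cell survival factor gene Tnfsf13b (0.12, adjusted p = 0.581) and Cxcl12, a chemokine that retains plasma cells in bone marrow (1.30, adjusted p = 0.127), did not pass. Il4, the cytokine that favors IgG1 in mice, was not analysed here. Of 8 genes for immunoglobulin receptors and transport, 4 rose, and 3 of these encode Fc gamma receptors carried by myeloid cells: Fcgr4 by a log2 fold change of 0.66 (adjusted p = 0.0249), the inhibitory Fcgr2b by 0.57 (adjusted p = 0.0477) and Fcgr3 by 0.55 (adjusted p = 0.0230). The call of Fcgr2b was lost with total-count scaling (adjusted p = 0.0526), upper-quartile scaling (adjusted p = 0.0549), no filter on low counts (adjusted p = 0.0532) and the omission of icOVA tumor 2 (adjusted p = 0.0910). The fourth, Fcer1g, encodes the signaling chain these receptors share and rose by 0.71 (adjusted p = 0.0230). Fcgr1 (0.49, adjusted p = 0.103) and Fcgrt, which encodes the neonatal Fc receptor (0.14, adjusted p = 0.7995), did not pass by edgeR. Of the 8 genes DESeq2 called 5, Fcgr1 included (adjusted p = 0.0330), limma-voom called 4, and 6 had an unadjusted p below 0.05 (edgeR).

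Markers of other cells moved with the antibody transcripts to different extents. Of 6 T cell genes 5 rose by edgeR, with Cd4 and Trac among them (median log2 fold change of the list 1.26). DESeq2 called 6 and limma-voom called 5, but the call of Cd4 was lost with limma-voom (adjusted p = 0.0523). The sum of the 6 genes was 75.3 to 124 CPM in the sgScramble and 169 to 264 CPM in the icOVA tumors. Of 7 lymph node and naive lymphocyte genes tested, none was called by edgeR or limma-voom, 2 were called by DESeq2, and 3 had an unadjusted p below 0.05 (median log2 fold change 0.92). The sum of that list was 33.5 to 52.4 CPM in the sgScramble and 41.95 to 94.8 CPM in the icOVA tumors, with an overlap. Tcf7 made up the largest part of it, with means of 24.7 and 30.2 CPM. Ccl19, of lymph node stroma, was the one gene of the list without overlap in CPM, with 9 to 27 and 31 to 65 counts in the sgScramble and icOVA tumors (log2 fold change 1.63, edgeR adjusted p = 0.0838). Madcam1 had 0 to 6 counts and 2 to 6 counts, Fcer2a 0 to 6 and 1 to 4, and Ccl21a, also of lymph node stroma, 11 to 375 and 20 to 764 counts in the sgScramble and icOVA tumors, and Glycam1, of high endothelial venules, had 2 to 31 and 28 to 110 counts. The part that T cells or lymph node tissue had in the antibody transcripts was not tested. The 5 skeletal muscle genes summed to 2.56 to 66.9 CPM and 1.90 to 128 CPM, and none of the tested skin (1), muscle (5), adipocyte (3) or pancreatic cancer cell (5) genes was called by edgeR, DESeq2 or limma-voom or had an unadjusted p below 0.05.

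The genes whose pattern over the 7 tumors was most like that of Ighg1, by Pearson correlation of log2 CPM among 14121 genes, were Sh2b2 (0.986), Ccne2 (0.985), Ifitm3 (0.984), Rangap1 (0.982) and Mterf3 (0.982). Those most like Igkc were Vta1 (0.989), Osm (0.977), Suv39h2 (0.975), Tab2 (0.970) and Fth1 (0.965). These correlations describe a ranking over 7 libraries in 2 groups, which share the group difference, and no gene was in both lists. They do not measure the size of a difference. In the order given, the log2 fold changes were 0.92, 0.59, 0.90, 0.21 and 0.11 for the genes like Ighg1. For those like Igkc they were 0.13, 0.95, 0.29, 0.17 and 0.51.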

How the data were processed

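The authors deposited raw counts per gene for 7 tumors in 1 table, keyed by Ensembl gene identifier with a row for ovalbumin. The submitters' processing notes name the mm10 build, and the aligner and counter are not given in the sources used here. The labels name polyA RNA, whereas the study's methods describe a stranded total RNA kit, single 76-base reads and fewer PCR cycles than usual; PCR copies count as reads, so intervals cover counting error only. Identifiers were matched to GENCODE M21 (GRCm38), which named 22414 of 22629 rows, 21803 of them with the same version. All 7 count columns matched a labeled tumor (0 unmapped).

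The 17489 genes passing filterByExpr (edgeR 4.0.16 in R 4.3.3, minimum count 10) were fitted with TMM scaling and edgeR's quasi-likelihood model, group as the only term, and p-values were adjusted over all of them by the method of Benjamini and Hochberg with a threshold of 0.05. Standard errors were derived from its F statistic. CPM used TMM-scaled library totals, and log2 CPM a prior count of 2. Depth was 30904855 to 37510591 counts. The members and the 12 gene lists (110 genes, after leaving out a few that are not reported here) were chosen with earlier results of these data known. Genes named were the 10 members, ovalbumin, up to 4 genes past the threshold per list, a fixed set of B cell, cytokine and receptor genes, and the 5 genes most like Ighg1 and Igkc with a mean of at least 50 counts. Marker genes of lymph node and the leukocyte gene Ptprc were added after their values were seen. Alternatives were DESeq2 1.42.0, limma-voom (limma 3.58.1), other scalings and filters, shares per length (1 of them added after seeing the data) and the omission of each tumor. Scripts were tested on simulated data.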

Additional observations from a re-analysis of the deposited data

Results flagged for a closer look

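In 5 values, 1 icOVA tumor was far from the other 3, its gap to the nearest tumor being a larger part of the group's range than Dixon's 95% critical value. The log2 CPM of Ighg2b was 6.43 in icOVA tumor 2 and 0.49 to 0.99 in the others, and the Ighg2b share of heavy chain counts was 52.6% in that tumor and 2.17% to 2.94% in the others. The log2 CPM of Ighm was 3.986 in icOVA tumor 16 and 5.24 to 5.38 in the others, and that of Cd79b was -0.26 in the same tumor and 1.06 to 1.25 in the others. Fcgr2b was at a log2 CPM of 8.22 in icOVA tumor 18 and at 7.88 to 7.89 in the others. In all, 50 values were examined, and chance alone gives about 1 such value in 20, or 2.5 here.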

How the results depend on the processing

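The 588 genes called higher and 444 called lower became 1558 and 1278 with DESeq2. Leaving out single tumors gave 0 to 1014 higher and 0 to 716 lower genes. In fits that omitted tumor 1 or tumor 5 of the sgScramble group, or tumor 15 of the icOVA group, no gene was called higher or lower, although 3087, 2936 and 3415 genes had an unadjusted p below 0.05 (edgeR), and without icOVA tumor 2 there were 6 higher and 2 lower. Without icOVA tumor 16 there were 1014 higher and 716 lower genes, and without sgScramble tumor 4 there were 681 lower. Of the 10 antibody genes, 7 were called, but 3 with limma-voom and 3 with at least 10 counts required in every tumor, where 4 were tested. The number was 0 to 7 over the single-tumor omissions. The IgG shares of icOVA tumors 15, 16, 18 and 2 moved to 21.4%, 53.15%, 45.5% and 70.1% per exon length and to 31.1%, 63.1%, 58.2% and 79.4% per shortest transcript.

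Scaling by Ptprc reversed the log2 fold changes of Cd38 (-0.1385), Cd79a (-0.51), Cd79b (-0.40), Fcer1g (-0.38), Fcgr1 (-0.57), Fcgr2b (-0.51), Fcgr3 (-0.53), Fcgr4 (-0.41), Fcgrt (-0.99), Prdm1 (-0.55), Tgfb1 (-0.95) and Tnfsf13b (-0.98). Other called genes stayed positive by Ptprc but no longer passed the threshold. They were Ifng (0.0069), Slamf7 (0.021), Cd3d (0.15), Cd3e (0.17), Trac (0.18), Spib (0.30), Irf4 (0.31), Cd4 (0.32), Cd40lg (0.38), Icos (0.42) and Il10 (0.54). OVA (4.94) and Xbp1 (-1.51) still passed by Ptprc, and Iglc1 (3.28), Iglc3 (1.87) and Sdc1 (-1.53) passed there although not in the main fit. Scaling by Cd79a and Cd79b reversed Cd79a (-0.0217), Fcgr1 (-0.12), Fcgr2b (-0.11), Fcgr3 (-0.082), Fcgrt (-0.70), Prdm1 (-0.14), Tgfb1 (-0.54) and Tnfsf13b (-0.53). Igha and Ighd, which were not called, turned from 0.079 and 0.43 to -0.98 and -0.68 by Ptprc and to -0.62 and -0.38 by Cd79a and Cd79b. These scalings subtract the group difference of the scaling genes by construction. Igha was also negative without sgScramble tumor 5 (-0.24), icOVA tumor 15 (-0.16) or icOVA tumor 16 (-0.026). Fcgrt ranged from -0.17 to 0.34 over the single-tumor omissions and was reversed without icOVA tumor 18. For the 31 other named genes, 181 of 241 values from all tumors and 129 of 210 from the omissions kept direction and side of the threshold. No paired analysis was possible because no tumor number occurs in both groups. Depth limits Ighg3 and Mzb1 most, with 2 and 0 counts in the sgScramble group.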
